A study of Mus musculus with 6 samples.

Results

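Heat shock proteins and DnaJ co-chaperones were followed in the hearts of mice without desmin, the main intermediate filament of heart muscle. The members were all genes on the array whose symbols begin with Hspa, Hspb, Hspd, Hspe, Hsph, Hsp90aa, Hsp90ab, Hsf or Dnaj, other than the endoplasmic reticulum genes Hspa5, Dnajb9, Dnajb11 and Dnajc3. This gave 72 of 18193 genes, each read by its brightest probe set. Of these, 31 were heat shock proteins, heat shock factors or partners caught by the name, and 41 were DnaJ genes. The members were not all cytosolic: at least 8 are known as mitochondrial proteins and at least 6 as proteins of the endoplasmic reticulum, so they are described by family and place. Dnajc19 is read only by 3 probe sets that it shares with a pseudogene and was left out. Hsf1, which encodes the main activator of the heat shock response, and Hsp90ab1 were not analysed here.

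Both groups carried the genotype Des-/- and were 3 months old, so the loss of desmin is common to all arrays. The Des_null group held 3 arrays of Des-/- myocardium of the 129SV strain. The TNF_Des_null group held 3 arrays of TNFαDes-/- myocardium, with cardiac-specific overexpression of the cytokine TNF-α, on a mixed 129SV/C57 background. Strain and transgene therefore cannot be told apart, and the labels do not say which promoter drives the transgene. The labels speak of RNA pooled from 3 hearts per genotype, so the arrays of a group may be repeats of a pool and the p-values may measure technical spread only. Hearts with desmin were not analysed here. The groups are named as labelled, and their own targeted genes did not check the labels. Des read 8.42, 8.43 and 8.33 in Des_null and 8.75, 8.88 and 8.73 in TNF_Des_null hearts (0.39 ± 0.10, limma adjusted p = 0.0219; 0.22 after quantile normalization), and Tnf lay between 5.73 and 6.09 on all 6 arrays, with no call (log2 change 0.07 ± 0.12, limma adjusted p = 0.746). Whether these probe sets lie in the deleted part of Des or in the transgene was not analysed here. In whole heart RNA, a change in the number of cells of a type and a change in RNA per cell cannot be told apart.

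Heat shock proteins are chaperones that keep other proteins folded. HSP70 proteins bind exposed stretches of a client and release them in a cycle driven by ATP. DnaJ proteins (HSP40) bring clients to HSP70 and start that cycle through their J domain, and exchange factors such as HSP110 end it. HSP90 takes over clients near their final fold, and small heat shock proteins hold unfolding clients without ATP. Heat shock factors switch these genes on by binding heat shock elements, alternating GAA and TTC units in the promoter. In striated muscle the small heat shock proteins and their partners guard sarcomere and filament proteins, and mutations in several of them or in their filament clients cause myopathy.

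Chaperone genes rose far more often than they fell. At a limma adjusted p of 0.05, 26 of the 72 members (36.1%) were higher and 1 (1.39%) was lower in TNF_Des_null hearts, where 15.2% of all genes were higher and 6.05% lower. The median log2 change was 0.25 over the members and 0.04 over all genes. The deposited arrays did not share a common range, and Des_null replicates 2 and 3 were lower at the bright end. The members lay in that bright range: 60 of them were above the array's median on all 6 arrays, and 28 fell in the brightest of 5 equal bins of all genes. In that bin, 1137 of 3639 genes were higher and 184 lower, with a median log2 change of 0.27. In the dimmest bin 28 of 3638 were higher and 57 lower, and the shares of all genes given throughout include such dim genes. After quantile normalization, which gives all arrays the same distribution, 24 members (33.3%) were higher and 6 (8.33%) lower, against 12.0% and 10.4% of all genes. The brightest bin then held 720 higher and 635 lower genes of 3639, with a median of 0.02. The members' median was then 0.14 and that of all genes was -0.0038. The same 23 members were higher under both scalings, and each of the 26 rises was smaller after quantile normalization.

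**Figure D1:**
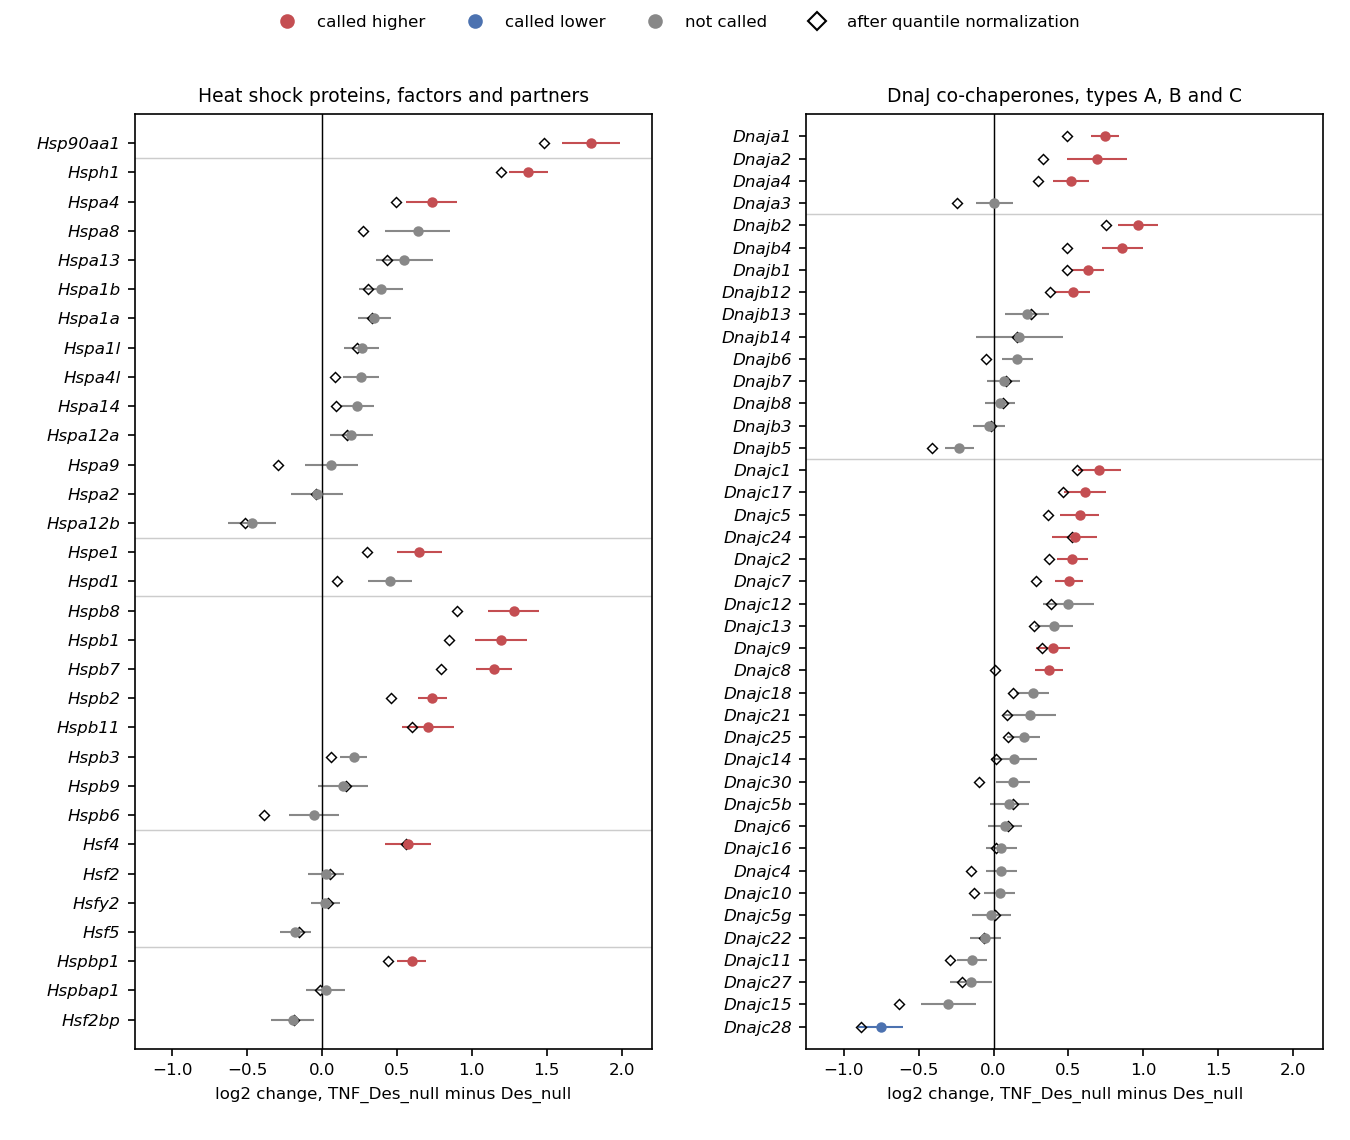
Log2 change (TNF_Des_null minus Des_null) of each of the 72 members, with bars of 1 SE from limma, n = 3 arrays per group, coloured by the call as deposited; open diamonds give the change after quantile normalization. Hsp90aa1, Hsph1, Hspb8, Hspb1 and Hspb7 lie furthest to the right, and for the mitochondrial Hspa9 and Dnajc15 the diamonds lie further left than the filled points.

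Des_null replicate 1 stood apart from the other Des_null arrays, and was above both of them in 50 of the 72 members and in 22 of the 26 that rose. The share of all genes for which this holds was not analysed here. The members' mean on Des_null replicates 1, 2 and 3 was 7.87, 7.67 and 7.64 as deposited, and 7.789, 7.812 and 7.794 after quantile normalization. Without Des_null replicate 1, 35 members (48.6%) were higher and 1 (1.39%) lower, against 23.4% and 8.56% of all genes, and 26 of the 27 calls were kept. The Des_null arrays left in this fit were those lower at the bright end, so that offset and the group cannot be told apart in it. The same holds for single genes given without that array. With quantile normalization as well, 23 members were higher and 6 lower, against 2356 and 2470 of all 18193 genes. As deposited, the groups did not overlap for 32 members with higher values in TNF_Des_null hearts (44.4%) and 3 with lower values (4.17%). Over all genes these shares were 24.3% and 13.7%.

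Hsp90aa1 and Hsph1 had the largest changes of the 72 members, under both scalings. Hsp90aa1, which encodes the stress-inducible HSP90 of the cytosol, read 10.30, 9.56 and 9.56 on Des_null replicates 1, 2 and 3 and 11.63, 11.53 and 11.64 on TNF_Des_null replicates 1, 2 and 3 (log2). All 3 TNF_Des_null arrays were more than 1 log2 unit above the highest Des_null array. The gene was 3.47-fold higher (log2 change 1.80 ± 0.19 SE, limma adjusted p = 0.000533; 1.48 after quantile normalization). Hsph1, the HSP110 that acts as an exchange factor for HSP70, read 8.46, 8.09 and 8.04 in Des_null and 9.54, 9.49 and 9.69 in TNF_Des_null hearts. Its groups were likewise wide apart, with a change of 1.38 ± 0.13 (adjusted p = 0.000319; 1.19 after quantile normalization). Hspa4, the HSP110 family member also called Apg2, read 9.71, 9.10 and 9.06 in Des_null and 10.04, 9.95 and 10.08 in TNF_Des_null hearts. Des_null replicate 1 came near the TNF_Des_null values, and the change was 0.73 ± 0.17 (adjusted p = 0.0172; 0.49 after quantile normalization).

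The HSP70 genes proper did not pass the test as deposited. Hspa8, the constitutive HSC70, read 13.08, 12.19 and 12.24 in Des_null and 13.22, 13.13 and 13.07 in TNF_Des_null hearts. Des_null replicate 1 lay just inside the range of the TNF_Des_null arrays. The change was 0.64 ± 0.22 (95% interval 0.14 to 1.13; limma adjusted p = 0.0690), 0.27 after quantile normalization (adjusted p = 0.104) and 0.92 without Des_null replicate 1 (adjusted p = 0.000513). Hspa1a and Hspa1b are the inducible pair and textbook markers of the heat shock response. Hspa1b read 7.02, 6.75 and 6.73 in Des_null and 7.34, 6.94 and 7.40 in TNF_Des_null hearts, so the groups overlapped, with a change of 0.40 ± 0.15 (95% interval 0.06 to 0.73; adjusted p = 0.0914, or 0.0404 at 0.49 without Des_null replicate 1). Hspa1a read 5.47, 5.48 and 5.53 in Des_null and 5.97, 5.66 and 5.90 in TNF_Des_null hearts, and its groups did not overlap. Its change was 0.35 ± 0.11 (95% interval 0.10 to 0.60; adjusted p = 0.0537, or 0.0435 at 0.34 after quantile normalization). These near-identical genes could share signal on their probe sets.

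Of the other HSP70 relatives, Hspa13 of the endoplasmic reticulum stood at 0.55 ± 0.19, Hspa1l at 0.26 ± 0.12, Hspa4l at 0.26 ± 0.12, Hspa14 at 0.24 ± 0.11, Hspa12a at 0.20 ± 0.14 and Hspa2 at -0.03 ± 0.17. None of these passed as deposited (limma adjusted p from 0.0728 to 0.917). Without Des_null replicate 1, Hspa13 (0.67, adjusted p = 0.0397) and Hspa4l (0.35, adjusted p = 0.0327) passed. Hspa12b, which is enriched in endothelial cells, stood at -0.47 ± 0.16 (adjusted p = 0.0714) and was lower after quantile normalization (-0.51, adjusted p = 0.0315). Endothelial markers moved the same way: 3 of 6 were lower, against 6.05% of all genes. Their summed linear level was 2554 to 3150 on Des_null and 2158 to 2238 on TNF_Des_null arrays, and none of the 6 was below the array medians. After quantile normalization 4 of the 6 markers were lower, against 10.4% of all genes. Their part in the Hspa12b value was not tested.

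Of the 8 members placed in the mitochondrion 1 was higher and 1 lower (median 0.03), near the 15.2% and 6.05% of all genes. After quantile normalization 1 was higher and 3 lower (median -0.27), against 12.0% and 10.4% of all genes. Hspe1 (HSP10) and Hspd1 (HSP60) form the folding chamber of the mitochondrial matrix. Hspe1 read 11.32, 10.89 and 10.73 in Des_null and 11.68, 11.54 and 11.67 in TNF_Des_null hearts, and rose by 0.65 ± 0.15 (limma adjusted p = 0.0175; 0.30, adjusted p = 0.0293, after quantile normalization). Hspd1 read 11.85, 11.37 and 11.31 in Des_null and 11.95, 11.93 and 12.01 in TNF_Des_null hearts. Its groups did not overlap, but the change of 0.45 ± 0.15 (95% interval 0.12 to 0.78) missed the threshold (adjusted p = 0.0578), passed without Des_null replicate 1 (0.62, adjusted p = 0.00184) and came to 0.10 (adjusted p = 0.406) after quantile normalization. Hspa9, the matrix HSP70, read 11.35, 10.67 and 10.70 in Des_null and 11.00, 10.91 and 11.00 in TNF_Des_null hearts. Its direction depended on the scaling: 0.06 ± 0.17 as deposited (adjusted p = 0.847), 0.28 without Des_null replicate 1 (adjusted p = 0.0429) and -0.30 after quantile normalization (adjusted p = 0.0320).

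The promoters of the pair are shown because both genes are read from the same stretch of DNA in opposite directions. In RefSeq (GRCm38.p6) the 2 genes overlap by 96 bases at their starts on chromosome 1. The stretch is printed on the plus strand, and its capitals mark 4 alternating units of a heat shock element with the bases between them, starting 89 bases before the start of Hspe1.
Hspe1 and Hspd1, chr1:55088047-55088088: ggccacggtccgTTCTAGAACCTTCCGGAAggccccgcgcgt
A search for 3 alternating units in a row, each GAA or TTC and separated by any 2 bases, was run on both strands over windows of 300 bases (250 before and 50 after each start). At least 1 match was found for 4 of the 58 members with a RefSeq promoter (6.90%), against 0.662% of the 27025 genes in the promoter table and 0.609% of the 14452 that are on the array. Hsp90aa1, Hspa8 and Hspb2 were among the members not searched. The 4 were Hspe1, Hspd1, Hsph1 and Dnajb6, of which the first 2 share the match and Hsph1 has it after its start. Among the 21 members with a promoter that rose, 2 (9.52%) held the match, and 2 of the 36 that were not called (5.56%). A match is a description of these letters, and no match says nothing of a factor's binding.
Dnajb6, chr5:29735840-29735876, plus strand: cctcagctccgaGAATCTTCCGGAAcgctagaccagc

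Pairs of 2 units (GAANNTTC or TTCNNGAA, which include the longer match) were found for 17 of the 58 members (29.3%), against 17.0% of the 27025 genes in the promoter table and 15.02% of the 14452 that are on the array. They are shown for Hspb1 and Dnaja1, which rose, and for Hspa1a and Hspa1b, which did not pass as deposited, with the pair in capitals.
Hspb1, chr5:135887790-135887821, plus strand: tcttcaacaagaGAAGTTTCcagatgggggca
Hspb1, chr5:135887810-135887841, plus strand: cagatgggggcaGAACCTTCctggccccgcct
Dnaja1, chr4:40722332-40722363, plus strand: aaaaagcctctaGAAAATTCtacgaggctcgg
Hspa1a, chr17:34972241-34972272, minus strand: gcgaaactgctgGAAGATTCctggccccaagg
Hspa1b, chr17:34959323-34959354, minus strand: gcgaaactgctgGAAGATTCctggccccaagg
The stretches of Hspa1a and Hspa1b read the same letters, and their windows were identical at 296 of 300 bases (98.7%).

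**Figure D2:**
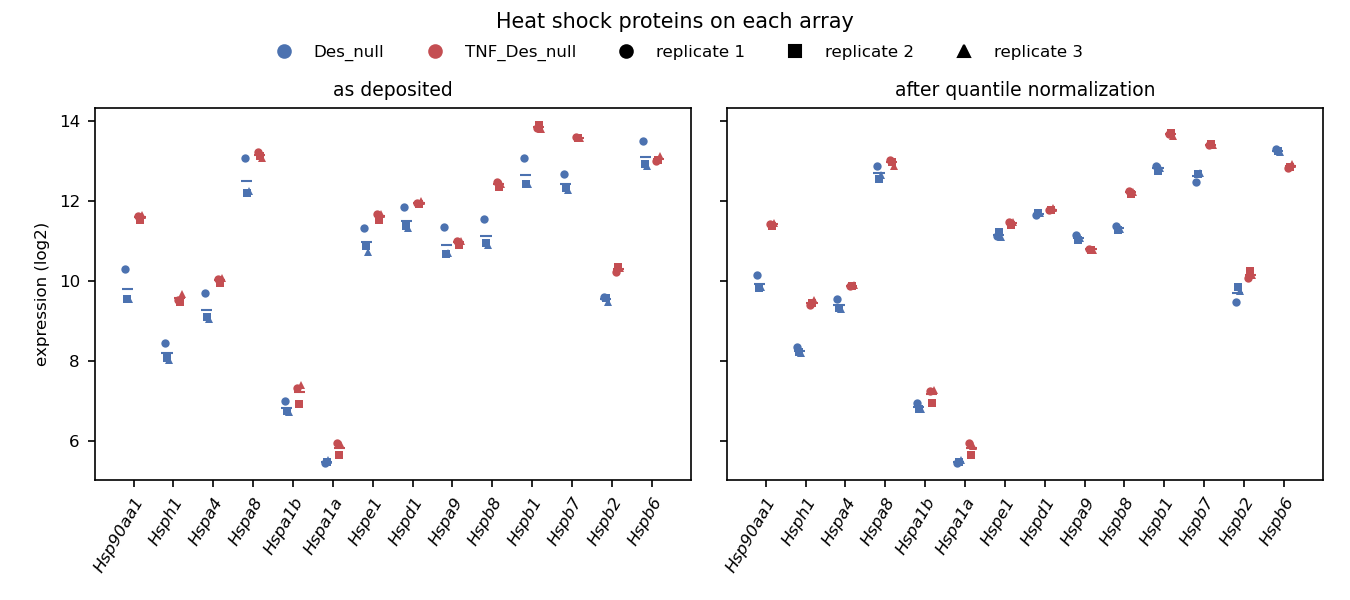
Expression (log2) of 14 heat shock protein genes on each array, as deposited (left) and after quantile normalization (right), with a line at each group's mean, n = 3. Hsp90aa1, Hsph1, Hspb8, Hspb1 and Hspb7 stay apart on both sides, while the circle of Des_null replicate 1 lies above the other Des_null arrays for most genes on the left.

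Small heat shock proteins rose in 5 of 8 cases with 0 falls (median 0.72), against 15.2% and 6.05% of all genes. After quantile normalization 5 were higher and 1 lower (median 0.53), against 12.0% and 10.4% of all genes. Hspb8, which works with the exchange factor Bag3 in removing damaged muscle proteins, read 11.56, 10.95 and 10.91 in Des_null and 12.47, 12.36 and 12.42 in TNF_Des_null hearts. The TNF_Des_null arrays were tight and all well above the highest Des_null array. It was 2.43-fold higher (1.28 ± 0.17, limma adjusted p = 0.00141; 0.90 after quantile normalization). Hspb1 (HSP25), which binds actin and intermediate filaments, read 13.08, 12.42 and 12.44 in Des_null and 13.81, 13.90 and 13.81 in TNF_Des_null hearts. The gene rose by 1.2 ± 0.17 (adjusted p = 0.00213; 0.85 after quantile normalization). Hspb7, a heart-enriched member that binds filamin C, read 12.67, 12.34 and 12.29 in Des_null and 13.59, 13.56 and 13.58 in TNF_Des_null hearts. It rose by 1.15 ± 0.12 (adjusted p = 0.000481; 0.80 after quantile normalization).

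Hspb2, a muscle-enriched partner of myotonic dystrophy protein kinase, read 9.62, 9.59 and 9.49 in Des_null and 10.23, 10.35 and 10.33 in TNF_Des_null hearts. Here Des_null replicate 1 did not stand out, and the rise was 0.74 ± 0.10 (limma adjusted p = 0.00123; 0.46 after quantile normalization). Its neighbour on chromosome 9, Cryab, encodes the αB-crystallin that guards desmin filaments, and the 2 genes overlap in RefSeq by 1283 bases. Cryab is no member by its name, and rose by 0.77 ± 0.15 (adjusted p = 0.00764; 0.45 after quantile normalization). Hspb11, named with this family but known as the ciliary transport protein IFT25, read 7.46, 7.00 and 6.85 in Des_null and 7.92, 7.57 and 7.94 in TNF_Des_null hearts and rose by 0.71 ± 0.17 (adjusted p = 0.0213; 0.60 after quantile normalization).

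Hspb6 (HSP20), a small heat shock protein of muscle, did not pass the test as deposited. It read 13.51, 12.92 and 12.87 in Des_null and 13.00, 13.02 and 13.11 in TNF_Des_null hearts, so the groups overlapped (-0.05 ± 0.17, 95% interval -0.43 to 0.33, limma adjusted p = 0.864). After quantile normalization it was lower (-0.39, adjusted p = 0.0102). Hspb3, a partner of Hspb2, stood at 0.21 ± 0.09 (adjusted p = 0.150) and the testis gene Hspb9 at 0.14 ± 0.17, below every array's median.

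Of the heat shock factors, 1 of 4 rose, against 15.2% of all genes. Hsf4, known for its role in the lens, read 5.86, 5.64 and 5.76 in Des_null and 6.20, 6.67 and 6.11 in TNF_Des_null hearts. The groups did not overlap, with TNF_Des_null replicate 2 highest, and the change was 0.57 ± 0.15 (limma adjusted p = 0.0300; 0.56 after quantile normalization). Hsf2 (0.03 ± 0.12), Hsf5 (-0.18 ± 0.11) and Hsfy2 (0.02 ± 0.10) lay under the median of every array, so a level over background was not shown. Hspbp1, an exchange factor of HSP70 caught by the name rule, read 7.97, 7.84 and 7.87 in Des_null and 8.53, 8.39 and 8.56 in TNF_Des_null hearts. It rose by 0.60 ± 0.10 (adjusted p = 0.00387; 0.44 after quantile normalization), while Hspbap1, a partner of Hspb1, stood at 0.02 ± 0.13 and Hsf2bp at -0.20 ± 0.14, neither past the test.

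DnaJ genes rose in 15 of 41 cases and fell in 1 (median 0.20), against 15.2% and 6.05% of all genes. After quantile normalization 12 were higher and 3 lower (median 0.10), against 12.0% and 10.4% of all genes. As deposited, a change of 2-fold was reached by 0 of the 16 called DnaJ genes and by 5 of the 11 others called. Of all 18193 genes, 3869 were called and 516 of these reached it. After quantile normalization only Hsp90aa1 and Hsph1 were called with a log2 change of at least 1. In type A, the closest relatives of the bacterial DnaJ, 3 of 4 rose. Dnaja1, a cytosolic partner of Hspa8, read 9.35, 9.27 and 9.20 in Des_null and 10.01, 9.98 and 10.07 in TNF_Des_null hearts, and rose by 0.75 ± 0.09 (limma adjusted p = 0.00113; 0.49 after quantile normalization). Dnaja2 read 11.96, 11.21 and 11.13 in Des_null and 12.07, 12.11 and 12.20 in TNF_Des_null hearts. Des_null replicate 1 came close to the TNF_Des_null arrays, and the change of 0.69 ± 0.20 passed narrowly (adjusted p = 0.0415; 0.33 after quantile normalization). Dnaja4, which is induced by heat shock, read 9.29, 8.99 and 8.97 in Des_null and 9.70, 9.47 and 9.63 in TNF_Des_null hearts and rose by 0.52 ± 0.12 (adjusted p = 0.0182; 0.29 after quantile normalization). The mitochondrial Dnaja3 stood at 0.01 ± 0.12.

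In type B, 4 of 11 rose and 0 fell on their brightest probe sets, against 15.2% and 6.05% of all genes. After quantile normalization 4 were higher and 1 lower, against 12.0% and 10.4% of all genes. Dnajb2, which sorts ubiquitinated clients for the proteasome, read 8.98, 8.80 and 8.55 in Des_null and 9.71, 9.65 and 9.87 in TNF_Des_null hearts. Among the brightest probe sets of the DnaJ genes this was the largest rise (0.96 ± 0.13, limma adjusted p = 0.00152; 0.75 after quantile normalization). Dnajb4 read 11.03, 10.61 and 10.52 in Des_null and 11.59, 11.53 and 11.61 in TNF_Des_null hearts, and rose by 0.86 ± 0.14 (adjusted p = 0.00352; 0.49 after quantile normalization). Dnajb1, the classic heat-inducible HSP40, read 7.50, 7.48 and 7.44 in Des_null and 8.18, 7.93 and 8.20 in TNF_Des_null hearts. Its Des_null arrays lay close together, and the change was 0.63 ± 0.11 (adjusted p = 0.00442; 0.49 after quantile normalization). Dnajb12, anchored in the endoplasmic reticulum with its J domain in the cytosol, read 8.07, 7.84 and 7.80 in Des_null and 8.33, 8.58 and 8.38 in TNF_Des_null hearts and rose by 0.53 ± 0.12 (adjusted p = 0.0141; 0.38 after quantile normalization). Dnajb6, whose human form is mutated in a limb-girdle muscular dystrophy, stood at 0.16 ± 0.10 (95% interval -0.08 to 0.39; adjusted p = 0.335). Dnajb5 stood at -0.23 ± 0.10 (adjusted p = 0.135) and was lower after quantile normalization (-0.41, adjusted p = 0.0250). Its other bright probe sets gave -0.76, called lower (limma adjusted p = 0.00556 over all probe sets), and 0.06.

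Type C holds J proteins that share little beyond the J domain. Of 26, 8 rose and 1 fell, against 15.2% and 6.05% of all genes. In the brightest bin of all genes, 1137 of 3639 were higher and 184 lower. After quantile normalization 5 were higher and 2 lower, against 12.0% and 10.4% of all genes. Dnajc1, which anchors a J domain in the endoplasmic reticulum, read 7.97, 7.53 and 7.56 in Des_null and 8.48, 8.22 and 8.48 in TNF_Des_null hearts and rose by 0.71 ± 0.14 (limma adjusted p = 0.00948; 0.56 after quantile normalization). Dnajc5, the vesicle protein CSPα, read 9.13, 8.88 and 8.84 in Des_null and 9.64, 9.31 and 9.63 in TNF_Des_null hearts and rose by 0.58 ± 0.13 (adjusted p = 0.0156; 0.36 after quantile normalization). Dnajc24, needed for the diphthamide change on elongation factor 2, read 5.27, 5.78 and 5.39 in Des_null and 6.19, 5.89 and 5.98 in TNF_Des_null hearts. Its groups came close without overlapping, and the change was 0.54 ± 0.15 (adjusted p = 0.0331; 0.52 after quantile normalization). Dnajc2, which sits at the ribosome with an HSP70, read 8.11, 7.93 and 7.92 in Des_null and 8.53, 8.42 and 8.58 in TNF_Des_null hearts and rose by 0.52 ± 0.10 (adjusted p = 0.00826; 0.37 after quantile normalization). Dnajc9, a histone chaperone, rose by 0.40 ± 0.11 (adjusted p = 0.0403).

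The other rises of this type ended after quantile normalization. Dnajc17 read 7.32, 7.63 and 7.40 in Des_null and 8.19, 8.18 and 7.81 in TNF_Des_null hearts, with TNF_Des_null replicate 3 nearest to the Des_null arrays (0.61 ± 0.14, limma adjusted p = 0.0158; 0.47, adjusted p = 0.0798, after quantile normalization). Dnajc7, which binds both HSP70 and HSP90, read 8.94, 8.96 and 8.97 in Des_null and 9.42, 9.41 and 9.56 in TNF_Des_null hearts (0.51 ± 0.09, adjusted p = 0.00670; 0.28, adjusted p = 0.116, after quantile normalization). Dnajc8 stood at 0.37 ± 0.09 (adjusted p = 0.0248; 0.01, adjusted p = 0.981, after quantile normalization).

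Among the brightest probe sets, the 1 member that fell was Dnajc28, a mitochondrial J protein. It read 8.28, 7.98 and 8.02 in Des_null and 7.33, 7.08 and 7.59 in TNF_Des_null hearts, with every TNF_Des_null array below every Des_null array. The fall was -0.76 ± 0.15 (limma adjusted p = 0.00834; -0.89 after quantile normalization). Dnajc15, a J protein of the mitochondrial import motor, read 11.12, 10.44 and 10.37 in Des_null and 10.36, 10.28 and 10.39 in TNF_Des_null hearts. Here Des_null replicate 3 fell within the range of the TNF_Des_null arrays and the other Des_null arrays above it (-0.30 ± 0.18, adjusted p = 0.292), and it was lower after quantile normalization (-0.63, adjusted p = 0.00162; -0.07, adjusted p = 0.607, without Des_null replicate 1 and without that normalization). On their brightest probe sets, the 25 DnaJ genes that were not called lay between -0.30 and 0.50.

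**Figure D3:**
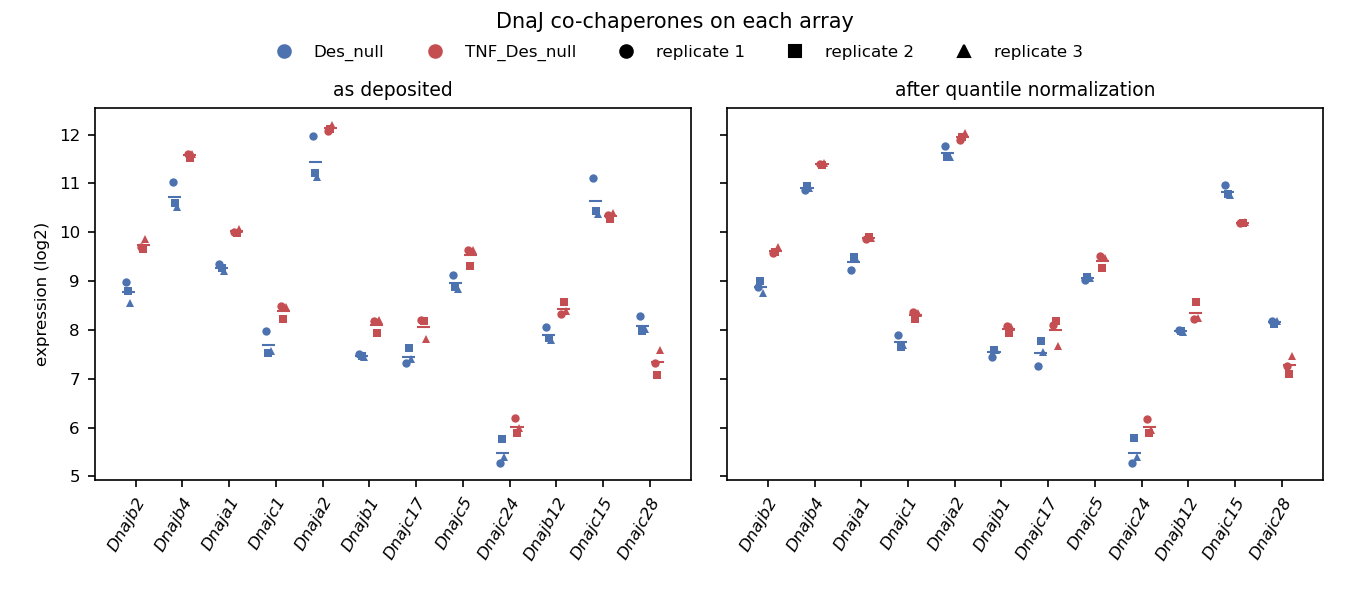
Expression (log2) of 12 DnaJ genes on each array, as deposited (left) and after quantile normalization (right), with a line at each group's mean, n = 3. The 10 largest rises stand left of Dnajc15 and Dnajc28, and for Dnajc28 the TNF_Des_null arrays are lower on both sides.

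No call was made among the 10 members below the median of every array. These were Dnajb3, Dnajb7, Dnajb8, Dnajc5b, Dnajc5g, Dnajc6, Hsf2, Hsf5, Hsfy2 and Hspb9, several of which are known from testis or brain. Their log2 changes lay between -0.18 and 0.14, and none was called. Since a level over background was not shown for them, the values put no bound on a change of the transcripts. The array medians lay between 5.02 and 5.08. Of the called members, Dnajc24 and Hsf4 were not far above them, reading from 5.27 and 5.64 on the Des_null arrays.

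Of the 27 called members, 15 kept the call when any 1 of the 6 arrays was left out, and 12 lost it without at least 1 array. In all, 17 members passed without Des_null replicate 2, 16 without Des_null replicate 3 and 16 without TNF_Des_null replicate 1. Hspa4, Hspe1, Hspb11, Dnaja4, Dnajc5 and Dnajc9 each lost it when replicate 2 or 3 of Des_null, or replicate 1 or 3 of TNF_Des_null, was left out. Their changes were then 0.62 to 0.72 for Hspa4, 0.53 to 0.63 for Hspe1, 0.58 to 0.65 for Hspb11, 0.46 to 0.50 for Dnaja4, 0.52 to 0.54 for Dnajc5 and 0.33 to 0.39 for Dnajc9. Dnaja2 (0.54 to 0.72) and Dnajc8 (0.32 to 0.40) lost it without any array other than Des_null replicate 1. Dnajb12 (0.48 to 0.50) lost it without Des_null replicate 2 or 3, and Hsf4 (0.52 to 0.64) without either of these or TNF_Des_null replicate 1. Dnajc17 (0.54 to 0.58) lost it without Des_null replicate 3 or TNF_Des_null replicate 1. Dnajc24 (0.44 to 0.56) lost it without Des_null replicate 1, Des_null replicate 3, TNF_Des_null replicate 1 or TNF_Des_null replicate 3. No sign changed in these fits, and the adjusted p reached at most 0.147.

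The probe sets of a gene did not always give the same change. Of 35 members with several probe sets above the median on all arrays, 23 had changes of the same sign and 12 of both signs, and in 18 the changes spread over more than 0.5. Hsp90aa1 was among those whose probe sets were close, with 1.69, 1.80 and 1.97, all called (limma adjusted p up to 0.00275 over all probe sets). Both probe sets of Hspb1 (1.2 and 1.26) and of Dnajc28 (-0.76 and -1.38) were also called. For Hspb7 the probe sets gave 1.15, 0.77 and 0.35, and for Hspb8 1.28, 0.86 and 0.30, the last of each not called. Hspa4l was not called on its brightest probe set (0.26), but 3 of its other probe sets were, at 0.64, 0.90 and 1.15. A second probe set of Hspa8 was called at 0.75 (adjusted p = 0.0278). For Hspa9 1 of 5 probe sets was called, at -1.29, and the other 4 lay between -0.04 and 0.16. The other bright probe sets of Hspa4 gave 0.02 and -0.35, and those of Dnaja2 0.34, 0.03 and 0.16. For Dnajb1 the other probe set gave 0.20 and was not called (limma adjusted p = 0.238 over all probe sets). Dnajc18 was not called on its brightest probe set (0.26), but another bright one was, at 0.74 (limma adjusted p = 0.00505 over all probe sets). Of the DnaJ genes, Dnajc2 (1.40) and Dnajc5 (0.99) each had another called probe set with a larger rise than their brightest (0.52 and 0.58). Dnajc5 also had bright probe sets at 0.58, called, and at 0.09 and -0.07, not called. Which transcript forms these probe sets read was not analysed here.

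**Figure D4:**
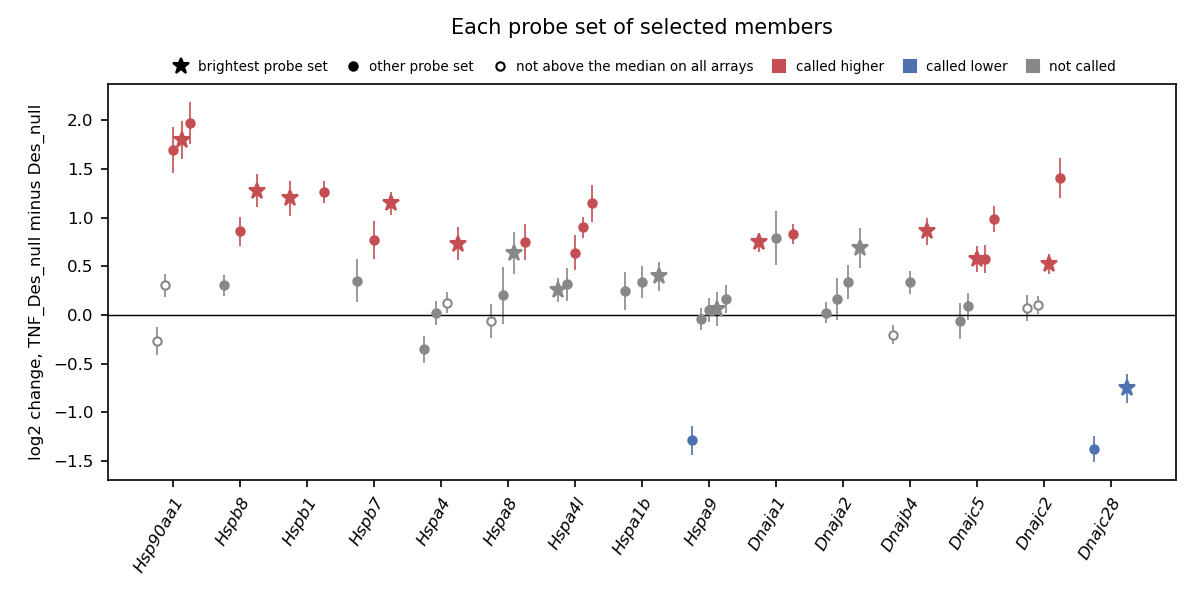
Log2 change (TNF_Des_null minus Des_null, bars of 1 SE, n = 3 arrays per group) of every probe set of 15 members, coloured by the limma call over all probe sets, where Dnaja2's brightest probe set has an adjusted p of 0.0524. The probe sets of Hsp90aa1 that lie above the array medians sit together at the top, while 1 probe set of Hspa9 lies far below its other 4.

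Most partner genes of the chaperones that passed the test were also higher. Of 50 measured partner genes from 6 lists, 22 were higher and 1 lower (median 0.40), against 15.2% and 6.05% of all genes. After quantile normalization 15 were higher and 3 lower (median 0.18), against 12.0% and 10.4% of all genes. With single arrays left out, 35 partner genes passed without Des_null replicate 1, 15 without Des_null replicate 2 and 15 without TNF_Des_null replicate 1. Of the 17 measured HSP90 co-chaperones 10 were higher and 1 lower, and 8 were higher and 2 lower after quantile normalization. They included Fkbp5 (1.04 ± 0.16, limma adjusted p = 0.00271), an immunophilin of steroid receptor complexes that glucocorticoids induce, Chordc1 (0.95 ± 0.12, adjusted p = 0.00118) and Cacybp (0.93 ± 0.16, adjusted p = 0.00503). The 1 partner that fell was Smyd1 (-0.85 ± 0.16, adjusted p = 0.00715; -1.15 after quantile normalization), a muscle methyltransferase of myosin assembly. Its partner in that task, the myosin chaperone Unc45b, rose (0.58 ± 0.12, adjusted p = 0.00891; 0.32 after quantile normalization).

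Against 15.2% of all genes, and 1137 of the 3639 in the brightest bin, 3 of 9 HSP70 partners were higher. These were St13 (0.90 ± 0.21, limma adjusted p = 0.0159), which steadies HSP70 on its client, and the exchange factors Bag2 (0.84 ± 0.09, adjusted p = 0.000679) and Bag5 (0.36 ± 0.09, adjusted p = 0.0283). After quantile normalization 2 of the 9 were higher and 1 lower, against 12.0% and 10.4% of all genes. Bag3, the partner of Hspb8, stood at 0.62 ± 0.21 (adjusted p = 0.0652), and at 0.88 without Des_null replicate 1 (adjusted p = 0.00118). In TRiC/CCT, the cytosolic chaperonin for actin and tubulin, 5 of 9 subunits were higher, against 15.2% of all genes. They included Cct5 at 0.86 ± 0.14 (adjusted p = 0.00405), Cct7 at 0.80 ± 0.13 and Cct3 at 0.78 ± 0.16. After quantile normalization 4 of the 9 subunits were higher (median 0.33), against 12.0% of all genes. Of 6 subunits of prefoldin, which hands clients to TRiC/CCT, 2 were higher as deposited (Pfdn6 0.37 ± 0.09 and Pfdn2 0.37 ± 0.10). After quantile normalization 0 were higher. Over all genes these shares were 15.2% and 12.0%. Of 7 genes of heat shock factor binding and the mitochondrial matrix 1 was higher, near the 15.2% of all genes: the protease Lonp1 (0.49 ± 0.10, adjusted p = 0.0116), and 0 after quantile normalization.

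Several measures of the arrays and of other cell types moved with the group, and their part in these results was not tested. The log2 ratio of 3' to 5' control probe sets was -0.01 ± 0.03 for Gapdh in Des_null and 0.32 ± 0.04 in TNF_Des_null hearts, and 0.48 ± 0.08 and 0.73 ± 0.10 for Actb (SD, n = 3). Near the top of each array, at the 99th percentile, Des_null replicate 1 and the TNF_Des_null arrays stood at 12.3 (log2), and Des_null replicates 2 and 3 at 11.7. The 8 cardiomyocyte markers were above the medians on all arrays and none was called, with a summed linear level of 116161 to 189420 on Des_null and 173773 to 178182 on TNF_Des_null arrays. Without Des_null replicate 1, 7 of the 8 were higher, against 23.4% of all genes. After quantile normalization 2 were lower, and the sums did not overlap (161190 to 161961 on Des_null and 149739 to 150369 on TNF_Des_null arrays). Of 7 macrophage markers 3 were higher (Cd14, log2 change 1.75, Csf1r, 0.71, and Adgre1, 0.49) and 1 lower (Cd68, -1.48). Their summed linear level was 5435 to 6964 on Des_null and 7489 to 7809 on TNF_Des_null arrays, and only Itgam was below the array medians. Lyz2, which was not called, and Csf1r are the brightest of them and make up most of this sum. After quantile normalization 3 were higher and 2 lower, and the sums overlapped (6209 to 7069 on Des_null and 6616 to 7091 on TNF_Des_null arrays). Of 6 fibroblast markers 2 were higher (15824 to 23960 on Des_null and 24998 to 25753 on TNF_Des_null arrays), and 1 was higher and 3 lower after quantile normalization (20873 to 21089 on Des_null and 21970 to 23175 on TNF_Des_null arrays). Of 4 smooth muscle markers 1 was higher (Acta2, log2 change 1.89) and 1 lower (Myh11, -0.85), while Tagln and Cnn1 were not called. Their summed linear level was 3259 to 4664 on Des_null and 10082 to 10535 on TNF_Des_null arrays. Acta2, the brightest of them, dominates this sum. Of 2 erythroid markers 1 was lower (199 to 326 on Des_null and 78 to 88 on TNF_Des_null arrays) and Hba-a1 was below every array's median, while 0 of 2 lymphocyte markers were called (98 to 122 on Des_null and 102 to 111 on TNF_Des_null arrays). Beside these marker counts, 15.2% of all genes were higher and 6.05% lower as deposited, and 12.0% and 10.4% after quantile normalization.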

How the data were processed

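Heart RNA was measured on 6 Affymetrix arrays, 3 per group, with groups and replicate numbers taken from the sample titles. The authors deposited log2 values, and RMA is named in the submitters' processing notes without a version. Of 45101 probe sets, 64 controls were left out, and 34945 with 1 gene symbol gave 18193 genes, each read by its brightest probe set over all arrays; no filter on dim probe sets was used. Gene identifiers of all 72 members were found in RefSeq (GRCm38.p6), and 58 had promoter sequences there.

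For the comparison of the groups, a linear model was fitted with lmFit and eBayes of limma 3.58.1 (R 4.3.3); p-values were adjusted by Benjamini-Hochberg over the 18193 genes, and 0.05 was the threshold; probe sets were tested in a fit over all probe sets. Errors of changes are SE. The members and lists were chosen with earlier results of these data known. Values on each array are given for members past the test with a log2 change of at least 0.5; the text names all heat shock protein genes, the 10 largest DnaJ rises, DnaJ falls and up to 3 genes per partner list. Any other gene was chosen with its values in view. The 53 list entries gave 50 measured genes. Same-numbered arrays did not deviate together in every pair, so replicates were not paired. Alternatives were quantile normalization, cyclic loess, median centring, other variance priors, array weights, a replicate block, a filter, other probe sets and single arrays left out; quantile normalization without Des_null replicate 1 was added after seeing the data. The number of arrays limits the precision. Figures were drawn with matplotlib.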

Additional observations from a re-analysis of the deposited data

How the results depend on the processing

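The number of members past the test was 27, and between 25 and 33 under quantile normalization, cyclic loess, median centring, an intensity trend, robust hyperparameters, a replicate block (33), the mean over each gene's probe sets, leaving out dim probe sets, and leaving out _s_at and _x_at probe sets. Array weights gave 45 members, 39 partner genes and 8414 genes in all, against 27, 23 and 3869; the cause was not tested. A test against a change of 1.2-fold (treat) called 9 members. With single arrays left out, 16 to 36 members, 15 to 35 partner genes and 2068 to 5814 genes in all passed. The members' median log2 change was 0.13 to 0.33 under the settings other than the filter on dim probe sets, which keeps 61 members and gave 0.40.

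Changes of sign with a call on at least 1 side were seen for Dnaja3 under cyclic loess (-0.27), for Dnajc8 (-0.17, not called) and Hspa9 (-0.26) with quantile normalization and Des_null replicate 1 left out, for Hspa9 under quantile normalization (-0.30), and for Hspa12a without _s_at and _x_at probe sets (-0.64), where another probe set stands for the gene. The share of calls in the higher direction fell under quantile normalization, from 26 of 27 members to 24 of 30. Of the 27 called members, 12 kept the call and direction under all 17 settings. Same-numbered arrays correlated in their deviations at 0.25, 0.31 and -0.30 for replicates 1, 2 and 3. These values are mixed in sign, so whether the numbers mark a shared batch cannot be settled from them. The replicate block changed no called member's side of the threshold, and with it 33 members passed.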
